A study of Mus musculus with 12 samples.

Results

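The proximal kinases and adaptors of the T cell receptor were described in mouse thymocytes at 3 stages that precede the expression of CD4 and CD8. They were taken as the 9 genes Zap70, Syk, Lck, Fyn, Txk, Tec, Lat, Lcp2 and Csk, through every probe set of the Affymetrix Mouse Genome 430 2.0 array that the platform annotation pairs with 1 of these symbols alone. The rule found 15 of the 45101 probe sets, which cover 8 of the 9 genes. Lck was not analysed here, since no probe set carries that symbol alone in the annotation used. Zap70 had 3 probe sets, Syk 4, Fyn and Lcp2 2 each, and Txk, Tec, Lat and Csk 1 each.

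Double negative (DN) cells of C57BL/6 females aged 5 to 6 weeks were sorted as DN2 (CD44+CD25+), DN3 (CD44-CD25+) and DN4 (CD44-CD25-). The thymuses had first been depleted magnetically of CD4+ and CD8+ cells, and the gate for all 3 populations left out cells positive for CD3, CD4, CD8, the gamma-delta receptor or NK1.1. Each of 4 sorts pooled 4 mice, 16 in all, and gave 1 array per stage, so the 12 arrays pair by sort across the stages. A population sorted in this way is a mixture, and the arrays of a stage measure pools of animals, not single animals.

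In a T cell, the Src-family kinases Lck and Fyn phosphorylate the CD3 and zeta chains of the receptor, to which Zap70 or its relative Syk then binds. Zap70 and Syk phosphorylate the adaptors LAT and SLP-76 (encoded by Lcp2), which assemble the enzymes of the next step, while the Tec-family kinases Tec and Txk act on phospholipase C and Csk holds Src-family kinases in check. In the thymus Syk is known from the early stages and from pre-T cell receptor signalling, and Zap70 from the later stages and mature T cells.

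Zap70 and Syk carry the main result below, so the 250 bases before the first start site listed for each are shown, from RefSeq for GRCm38.p6, 5′ to 3′ on the strand of the gene. Capitals mark every match on either strand. The letters searched were CCGGAA for the core motif of ETS factors. For RUNX factors they were TGTGGT. The GATA factor core was AGATAA. An E-box, the site of basic helix-loop-helix factors, was CANNTG. The Zap70 window is chr1:36761548-36761797 (plus strand) and the Syk window is chr13:52583187-52583436 (plus strand), and the Syk gene model of the same assembly begins upstream of its window.
Zap70: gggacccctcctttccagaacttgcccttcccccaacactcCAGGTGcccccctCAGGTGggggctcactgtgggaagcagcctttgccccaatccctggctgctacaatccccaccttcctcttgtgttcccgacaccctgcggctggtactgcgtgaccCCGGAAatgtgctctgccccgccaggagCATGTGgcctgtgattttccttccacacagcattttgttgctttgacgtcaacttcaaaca
Syk: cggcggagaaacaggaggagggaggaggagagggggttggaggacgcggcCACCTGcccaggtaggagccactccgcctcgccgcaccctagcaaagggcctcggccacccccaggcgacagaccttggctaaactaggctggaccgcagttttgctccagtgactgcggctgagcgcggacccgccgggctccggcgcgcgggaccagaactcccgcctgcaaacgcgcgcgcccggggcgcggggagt
The Zap70 window held 1 ETS core, from base -89 to base -84 before the start, and 3 E-boxes. The Syk window held 0 ETS cores and 1 E-box, from base -200 to base -195, and neither window held a RUNX or GATA core. Among 32851 windows of the same length, 12.03% held the ETS core, 66.2% an E-box, 14.05% the RUNX core and 9.99% the GATA core. The Syk window was richer in G and C (71.6%, with 27 CpG) than the Zap70 window (58.8%, with 6 CpG), where the median window had 52.4% and 6 CpG. These matches are letters in a window, and binding was not measured.

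Levels below are log2(signal + 5.69) after quantile normalization between arrays, where the constant added is the 25th percentile of the table. Differences carry the standard error (SE) of a limma fit with 4 arrays per stage. This fit does not use the pairing by sort, so differences between sorts enter its SE and intervals. Adjusted p-values follow Benjamini and Hochberg over 24107 probe sets, with 0.05 as the threshold. A fold is 2 to the power of the difference on this scale, which understates the change of dim probe sets. A probe set was tested if it lay above the table-wide median (log2 level 4.71, signal 20.6) on at least 4 arrays. In sorted pools, fewer cells of a type and less RNA per cell cannot be told apart.

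The sorts carried the marks of their stages. Cd44 averaged 9.44 in DN2, 5.76 in DN3 and 5.62 in DN4, and Il2ra (CD25) averaged 11.20, 10.46 and 6.90. The Cd4 probe set lay below the filter level on all 12 arrays. Deposited signals were not on one scale, with trimmed means from 129.8 to 234.1 per array. Without normalization between arrays the median of all probe sets differed by 0.13 in DN3 against DN2, by -0.44 in DN4 against DN3 and by -0.32 in DN4 against DN2. For Gapdh, the 3′ control probe sets exceeded the 5′ ones, a measure of RNA shortening, by a log2 ratio that ran from 1.10 to 1.82 in DN2, 0.88 to 1.26 in DN3 and 1.02 to 1.46 in DN4.

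Of the 15 probe sets, 14 were tested. Between DN2 and DN3, 2 rose (both Zap70) and 2 fell (1 of Syk and 1 of Fyn), where 7.15% of all probe sets tested were called, 3.16% higher and 3.99% lower in DN3. Between DN3 and DN4, 1 rose (Zap70) and 2 fell (Syk and Tec), against 11.3% of all called, 4.42% higher and 6.83% lower. From DN2 to DN4, 2 rose (Zap70) and 5 fell (2 of Syk, 2 of Fyn and Tec), against 27.2% of all called, 14.1% higher and 13.1% lower. The median difference of the 14 was -0.20, -0.09 and -0.35 in these comparisons, and 0.03, 0.03 and 0.05 over all probe sets. Probe sets of 1 gene are not independent, so the counts are descriptions. Each called difference of these probe sets went the same way in 4 of 4 sorts. The comparisons share arrays, and the last is the sum of the other two.

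**Figure D1:**
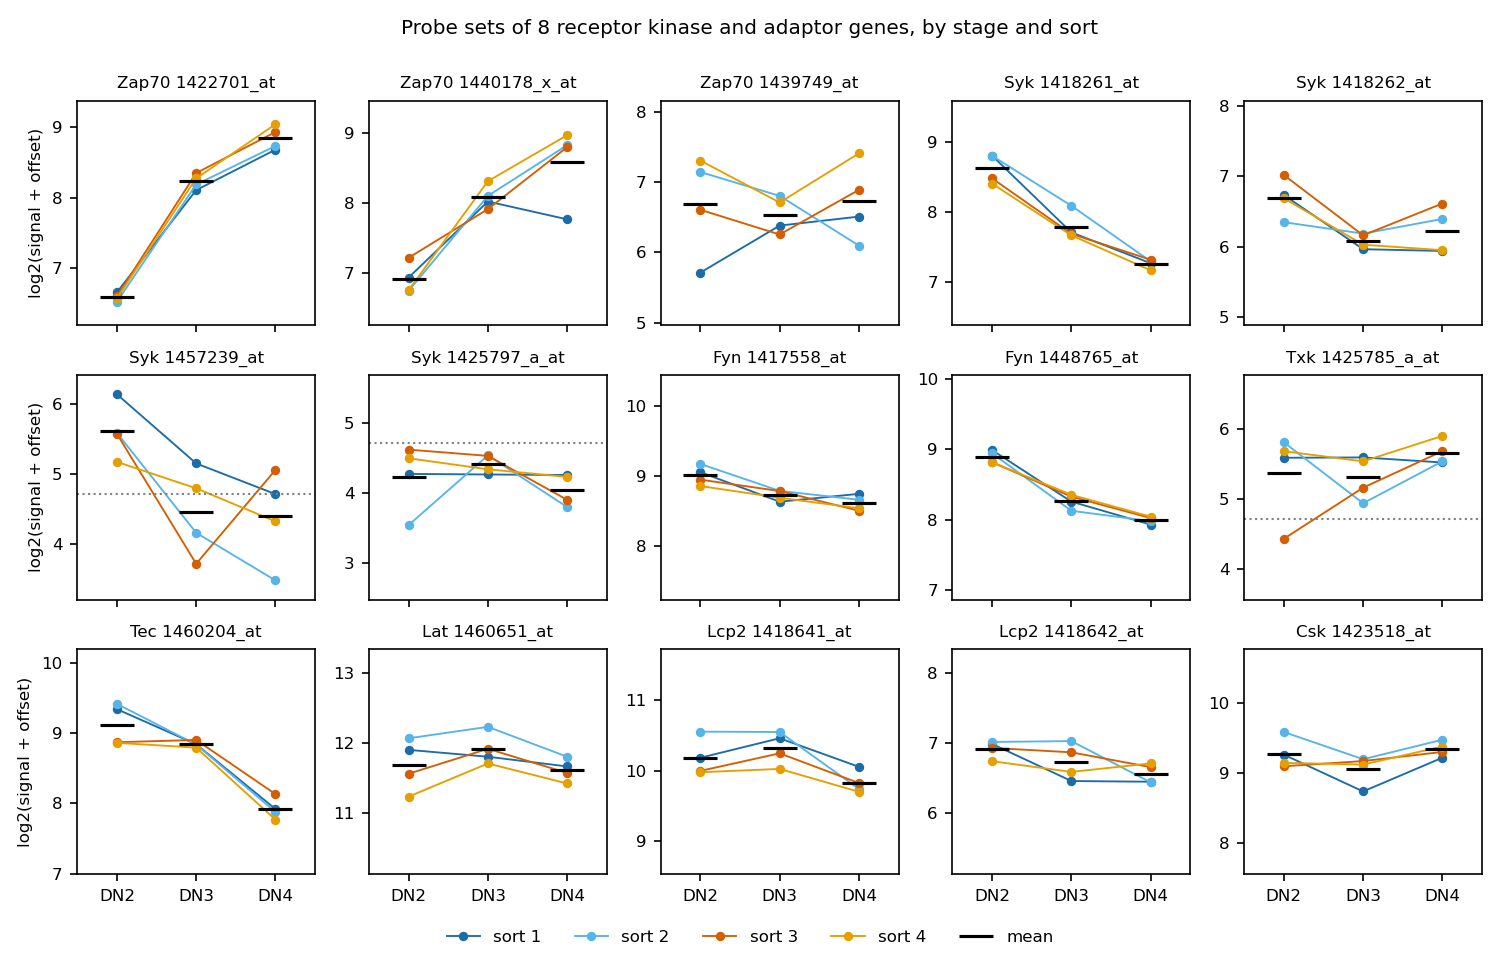
Level of each of the 15 probe sets on the 12 arrays, as log2(signal + offset) on the vertical axis against stage, with 1 line per sort, a bar at each stage mean and a dotted line at the filter level where it falls within a panel. Every panel spans the same number of log2 units, and only the first Zap70 probe set climbs at both steps in all 4 sorts without overlap between stages.

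Zap70, the kinase of the mature receptor, rose at both steps at its brightest probe set by mean level (1422701_at). In sorts 1 to 4 its level was 6.65, 6.52, 6.59 and 6.57 in DN2, and 8.11, 8.19, 8.35 and 8.28 in DN3. In DN4 it was 8.68, 8.74, 8.94 and 9.04. The lowest DN3 value stood well above the highest of DN2, and every DN4 value above every DN3 value. The rise from DN2 to DN3 was 1.65 ± 0.117 (SE), or 3.13-fold (adjusted p = 5.86e-06), and that from DN3 to DN4 was 0.62 ± 0.117, or 1.54-fold (adjusted p = 0.00624). Over both steps Zap70 rose 4.82-fold (adjusted p = 1.24e-07). The second step depended on the scaling. On the signals as deposited DN4 exceeded DN3 by 0.11 (adjusted p = 0.745), which is 0.55 above the median of all probe sets on that scale. With the mean of all 3 Zap70 probe sets the first step was 0.89 and the second 0.44 (adjusted p = 0.0963).

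The other Zap70 probe sets differed in what they showed. At 1440178_x_at, a probe set type that can match more than 1 transcript, the DN2 levels were 6.93, 6.74, 7.22 and 6.76 and the DN3 levels 8.02, 8.10, 7.91 and 8.31. The DN4 levels were 7.76, 8.82, 8.79 and 8.96. DN2 and DN3 did not overlap, and DN4 lay above DN3 apart from sort 1. This probe set rose 2.25-fold from DN2 to DN3 (1.17 ± 0.236, adjusted p = 0.0106) and 3.19-fold from DN2 to DN4 (1.67, adjusted p = 3.17e-04). The step from DN3 to DN4 was 0.50 (adjusted p = 0.197), and 0.78 (adjusted p = 0.0128) without DN4 replicate 1. With the Gapdh ratio and the sort both in the model, the DN3 and DN2 levels differed by 1.20 at this probe set (adjusted p = 0.25).

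At 1439749_at the Zap70 levels were 5.71, 7.14, 6.61 and 7.31 in DN2, 6.38, 6.80, 6.25 and 6.71 in DN3 and 6.51, 6.10, 6.89 and 7.41 in DN4. The stages overlapped throughout, and the sorts spread more within DN2 than the stage means spread. DN3 and DN2 differed by -0.16 (95% interval -0.91 to 0.60, adjusted p = 0.866), DN4 and DN3 by 0.19 (adjusted p = 0.776) and DN4 and DN2 by 0.03 (-0.72 to 0.79, adjusted p = 0.955). These intervals leave out the rises seen at the other probe sets of the gene between DN2 and DN4. Which transcripts each probe set reads was not analysed here.

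Syk, which is also used by B, mast, myeloid and natural killer (NK) cells, fell at both steps at its brightest probe set (1418261_at). In DN2 its level was 8.80, 8.80, 8.48 and 8.40, and in DN3 it was 7.71, 8.09, 7.69 and 7.67. In DN4 it was 7.27, 7.30, 7.32 and 7.17. The 3 stages did not overlap, and sort 2 was the highest of DN3. The fall from DN2 to DN3 was -0.83 ± 0.139, or 1.78-fold lower (adjusted p = 0.0033), and this was called neither on the signals as deposited (-0.70, adjusted p = 0.12) nor with the Gapdh ratio and the sort in the model (-0.71 ± 0.190, adjusted p = 0.136). From DN2 to DN4 Syk fell 2.56-fold (-1.36, adjusted p = 2.9e-05).

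The fall of Syk from DN3 to DN4 was -0.53 ± 0.139, or 1.44-fold lower (adjusted p = 0.0318), and it stood close to the threshold. Leaving out DN3 replicate 1, 2 or 3 or any 1 of the DN4 replicates gave -0.43 to -0.56 with adjusted p from 0.0534 to 0.0934. With the sort as a block the adjusted p was 0.01, and with no filter it was 0.1. The mean of all Syk probe sets gave -0.20 (adjusted p = 0.312).

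The other Syk probe sets were dimmer. At 1418262_at the levels were 6.74, 6.35, 7.02 and 6.69 in DN2, 5.96, 6.18, 6.16 and 6.03 in DN3 and 5.94, 6.39, 6.61 and 5.95 in DN4. All DN2 values exceeded all DN3 values, and DN4 overlapped both. The differences were -0.61 ± 0.182 from DN2 to DN3 (adjusted p = 0.0661), 0.14 from DN3 to DN4 (adjusted p = 0.672) and -0.47 from DN2 to DN4 (adjusted p = 0.0731). With the sort as a block the adjusted p was 0.0301 for DN3 and 0.037 for DN4, each against DN2. Without DN2 replicate 2 the DN3 difference was -0.73 (adjusted p = 0.0398) and the DN4 difference -0.59 (adjusted p = 0.0369). Without DN4 replicate 3, adjusted p was 0.0494 for DN3 and 0.03 for DN4 (-0.61), each against DN2.

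At 1457239_at the Syk levels were 6.14, 5.59, 5.58 and 5.18 in DN2. They were 5.15, 4.17, 3.72 and 4.80 in DN3 and 4.72, 3.49, 5.06 and 4.33 in DN4. All DN2 values lay above those of the later stages, whose means lay below the filter level. This probe set passed the filter on 8 arrays, among them all 4 of DN2. The difference from DN2 to DN3 was -1.16 ± 0.368 (adjusted p = 0.0841, or 0.0488 in the blocked fit). From DN2 to DN4 it fell at least 1.87-fold (adjusted p = 0.0276), set against the filter level, since the DN4 mean lay below it. Over the alternatives the DN4 difference ran from -1.76 to -0.68. It was not called with the Gapdh ratio and the sort in the model (-0.94, adjusted p = 0.188) or with no filter (adjusted p = 0.0577), and the adjusted p was 0.0804, 0.0524 and 0.0522 without DN2 replicate 1, 2 or 3 and 0.071 and 0.0607 without DN4 replicate 2 or 4. The last Syk probe set, 1425797_a_at, was below the filter level on every array and was not tested. Its levels averaged 4.23 ± 0.48 (SD, n = 4), 4.42 ± 0.14 and 4.05 ± 0.23.

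The switch from Syk to Zap70 was read as the change of Zap70 (1422701_at) minus the change of Syk (1418261_at) on the same arrays, which sets no level of one probe set against the other. Relative to the DN2 mean, log2 Zap70 minus log2 Syk was -0.11, -0.24, 0.15 and 0.20 in sorts 1 to 4 of DN2. It was 2.44, 2.14, 2.70 and 2.65 in DN3 and 3.45, 3.48, 3.66 and 3.92 in DN4. The stages were fully separate in every sort. Zap70 gained on Syk by 2.48 ± 0.08 (SD over 4 sorts), or 5.58-fold, from DN2 to DN3, by 1.15 ± 0.19, or 2.21-fold, from DN3 to DN4, and by 3.63 ± 0.11, or 12.3-fold, over both. For each of the 3 comparisons the exact two-sided permutation p was 0.0286 (0.0286 after adjustment over the 3), the smallest that 4 against 4 arrays can give. That test does not use the pairing by sort. The exact sign-flip test over the 4 pairs gave 0.125 for each, the smallest it can give.

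In each sort the first step was the greater of the pair, with 2.55, 2.38, 2.55 and 2.45 against 1.01, 1.34, 0.95 and 1.27. The measure largely cancels a factor common to both probe sets of an array, though not fully, since a constant is added before the log. It was 2.44, 1.21 and 3.65 with the signals centred on their median, and 2.54, 1.17 and 3.71 with a constant of 1. It does depend on the probe sets chosen. With the mean of the probe sets of each gene it was 1.76, 0.59 and 2.34 (exact two-sided permutation p = 0.0286 each), and with Zap70 1422701_at against Syk 1418262_at it was 0.48 for DN4 against DN3 (exact p = 0.0286). With Zap70 1439749_at against Syk 1418261_at the exact two-sided permutation p was 0.143 for DN3 against DN2 (0.68), 0.0571 for DN4 against DN3 (0.71) and 0.0571 for DN4 against DN2 (1.39). With Zap70 1440178_x_at against Syk 1418261_at it was 0.0571 for DN4 against DN3 (1.03).

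**Figure D2:**
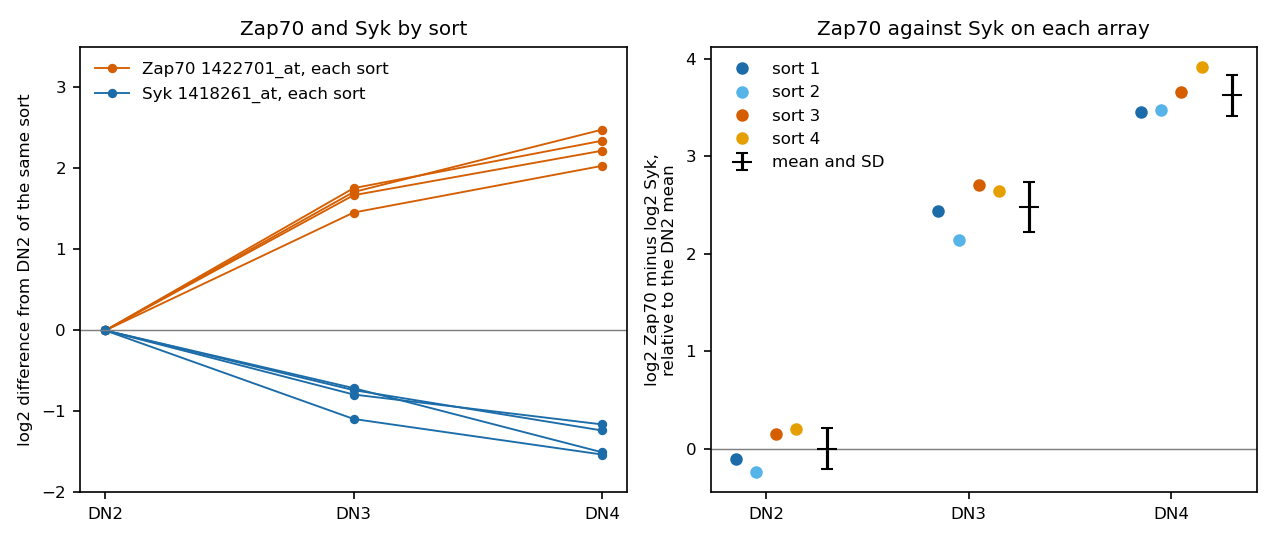
Left, log2 difference of Zap70 1422701_at and Syk 1418261_at from DN2 of the same sort, with 1 line per sort. Right, log2 Zap70 minus log2 Syk relative to the DN2 mean on each array, with the mean and SD of 4 arrays per stage. The Zap70 lines climb by 2.03 to 2.48 by DN4 and the Syk lines descend in every sort, so that the points of the 3 stages do not overlap.

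The summed signals of the mast cell, NK cell and myeloid lists, like Syk, were highest in DN2, and so was that of the mature T cell list given below. The summed signal of 5 probe sets of the mast cell and basophil list ran from 2850 to 3820 in DN2, 106 to 258 in DN3 and 41.3 to 84.1 in DN4, with Fcer1a and Ms4a2 below the filter level on all arrays. Cpa3, a mast cell protease gene, made up 97.1% of the mean sum in DN2, and Hdc and Gata2 averaged 5.32 and 5.38 there on the log2 scale. The 5 of the NK cell list ran from 1600 to 1850, 419 to 737 and 106 to 124, with Ncr1 below it. Nkg7, a cytotoxic granule gene, made up 95.8% of that sum in DN2, Prf1 (perforin) averaged 4.70, 5.33 and 4.65, and Eomes was not tested. The 8 of the myeloid list ran from 421 to 1030, 178 to 254 and 108 to 200, with Itgam below it. Mpo made up 33.7% of that mean sum in DN2. Of 7 tested, 2 were called lower in DN3 than in DN2 and 0 higher, where 5.39% of all genes tested, each at its brightest probe set, were called lower. The 2 were Mpo and Lyz2, which averaged 4.18 and 6.15 in DN3. Mpo, Elane and S100a9 averaged above the filter level in DN2 alone, which favours a fall, so the count is no result about the list. Csf1r averaged 5.33, 5.62 and 5.76, and Cd68 averaged 5.09, 5.18 and 4.75. The 6 of the B cell list ran from 235 to 288, 210 to 266 and 159 to 269, with Ebf1 below it. The 6 of the dendritic cell list ran from 318 to 718, 182 to 331 and 238 to 859. The part of other cells in the Syk values was not tested.

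Other T cells were read from 2 lists. The 4 probe sets of the mature T cell list summed to 273 to 604 in DN2, 103 to 156 in DN3 and 140 to 231 in DN4, and the 2 of the gamma-delta list to 436 to 1030, 470 to 885 and 304 to 567. From DN3 to DN4 the mature T cell list had a median difference of 0.88, with 0 of 4 called at an adjusted p under 0.05 (limma). Over all genes tested, each at its brightest probe set, the median was 0.05 and 13.3% were called. Ccr7 and Il6ra averaged 4.42 and 4.26 in DN3, below the filter level, which favours a rise, and S1pr1 went the other way (-0.23). The median is therefore no result about the list. The part of other T cells in the Zap70 values was not tested. The 2 erythroid probe sets summed to 5.85 to 16.7 in DN2, 9.91 to 24.8 in DN3 and 19.5 to 85.7 in DN4, and neither was tested. Alas2 averaged 3.27, 3.785 and 5.47 on the log2 scale.

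Fyn, a Src-family kinase, fell at 1 of its probe sets at the first step. At 1448765_at the levels were 8.99, 8.94, 8.82 and 8.82 in DN2, 8.26, 8.12, 8.33 and 8.35 in DN3 and 7.93, 7.98, 8.02 and 8.04 in DN4. The stages did not overlap, although the second step was small. This probe set fell by 0.63 ± 0.104 from DN2 to DN3, or 1.54-fold (adjusted p = 0.00328), and by 0.90 from DN2 to DN4, or 1.87-fold (adjusted p = 7.64e-05). The difference from DN3 to DN4 was -0.27 (adjusted p = 0.116), and -0.42 (adjusted p = 0.0329) with arrays centred on their median. The first step was called neither on the signals as deposited (-0.49, adjusted p = 0.315) nor with the Gapdh ratio and the sort in the model (-0.43, adjusted p = 0.228).

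At 1417558_at the Fyn levels were 9.05, 9.17, 8.95 and 8.86 in DN2, 8.63, 8.79, 8.79 and 8.69 in DN3 and 8.75, 8.66, 8.51 and 8.54 in DN4. DN2 lay above both later stages, which overlapped each other. The differences were -0.28 ± 0.113 from DN2 to DN3 (adjusted p = 0.175) and -0.11 from DN3 to DN4 (adjusted p = 0.575). From DN2 to DN4 this probe set fell 1.31-fold (-0.39, adjusted p = 0.0224). Without DN2 replicate 2 the adjusted p was 0.0579, and without DN4 replicate 3 or 4 it was 0.0587 or 0.0621. The call was also lost with the Gapdh ratio and the sort in the model (-0.28, adjusted p = 0.129), with no filter (adjusted p = 0.0844) and in a fit of only the 8 arrays compared (adjusted p = 0.0607).

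Csk, the kinase that phosphorylates the inhibitory tail of Src-family kinases, had levels of 9.26, 9.58, 9.09 and 9.14 in DN2, 8.74, 9.19, 9.17 and 9.12 in DN3 and 9.22, 9.47, 9.30 and 9.38 in DN4. The sort 1 array of DN3 was low, and DN4 lay above DN3 in each sort. The difference from DN2 to DN3 was -0.22 ± 0.147 (95% interval -0.54 to 0.10, adjusted p = 0.46) and that from DN3 to DN4 was 0.29 (-0.03 to 0.61, adjusted p = 0.235). DN4 and DN2 differed by 0.07 (-0.25 to 0.39, adjusted p = 0.763).

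Tec, the founding member of its kinase family, fell at the second step. Its levels were 9.34, 9.42, 8.87 and 8.86 in DN2, 8.84, 8.84, 8.90 and 8.80 in DN3 and 7.92, 7.88, 8.13 and 7.77 in DN4. DN2 of sorts 3 and 4 overlapped DN3, and every DN4 array lay below all others. Tec fell 1.89-fold from DN3 to DN4 (-0.92 ± 0.150, adjusted p = 0.00284) and 2.30-fold from DN2 to DN4 (-1.20, adjusted p = 1.31e-04). From DN2 to DN3 the difference was -0.28 (95% interval -0.61 to 0.05, adjusted p = 0.324).

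Txk, the Tec-family kinase whose gene lies next to Tec on chromosome 5, was dim. Its levels were 5.59, 5.81, 4.44 and 5.68 in DN2, 5.60, 4.94, 5.16 and 5.54 in DN3 and 5.52, 5.54, 5.68 and 5.90 in DN4. The stages overlapped, and 1 DN2 array, of sort 3, lay below the filter level. DN4 and DN3 differed by 0.35 ± 0.273 (95% interval -0.24 to 0.95, adjusted p = 0.445), and DN3 and DN2 by -0.07 (-0.66 to 0.52, adjusted p = 0.928).

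Lat, the membrane adaptor phosphorylated by Zap70 and Syk, was bright at each stage. Its levels were 11.90, 12.07, 11.56 and 11.24 in DN2, 11.81, 12.23, 11.92 and 11.71 in DN3 and 11.67, 11.81, 11.58 and 11.43 in DN4. The stages overlapped, and in each stage sort 2 was the highest and sort 4 the lowest. The differences were 0.22 ± 0.187 from DN2 to DN3 (95% interval -0.18 to 0.63, adjusted p = 0.566), -0.30 from DN3 to DN4 (-0.70 to 0.11, adjusted p = 0.335) and -0.08 from DN2 to DN4 (-0.48 to 0.33, adjusted p = 0.804). With the sort as a block the SE was 0.112, and the steps were still not called (adjusted p = 0.221 and 0.088 in limma). With the Gapdh ratio and the sort in the model the second step was -0.40 (adjusted p = 0.0411).

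Lcp2, which encodes SLP-76, gave at 1418641_at levels of 10.18, 10.55, 9.99 and 9.98 in DN2, 10.46, 10.55, 10.24 and 10.02 in DN3 and 10.05, 9.74, 9.82 and 9.70 in DN4. DN4 lay below DN3 in each sort, while the groups overlapped by a narrow margin. The difference from DN3 to DN4 was -0.49 ± 0.165 (adjusted p = 0.0776). It was called with the sort as a block (adjusted p = 0.0229) and on the signals as deposited (-0.92, adjusted p = 0.00828). DN3 and DN2 differed by 0.14 (adjusted p = 0.701).

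The dimmer Lcp2 probe set, 1418642_at, had levels of 6.98, 7.01, 6.93 and 6.74 in DN2, 6.46, 7.03, 6.87 and 6.59 in DN3 and 6.45, 6.44, 6.66 and 6.71 in DN4. DN3 overlapped both other stages, and every DN4 value lay below every DN2 value by a narrow margin. The differences were -0.18 ± 0.145 from DN2 to DN3 (adjusted p = 0.539), -0.17 from DN3 to DN4 (adjusted p = 0.486) and -0.36 from DN2 to DN4 (adjusted p = 0.0898).

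**Figure D3:**
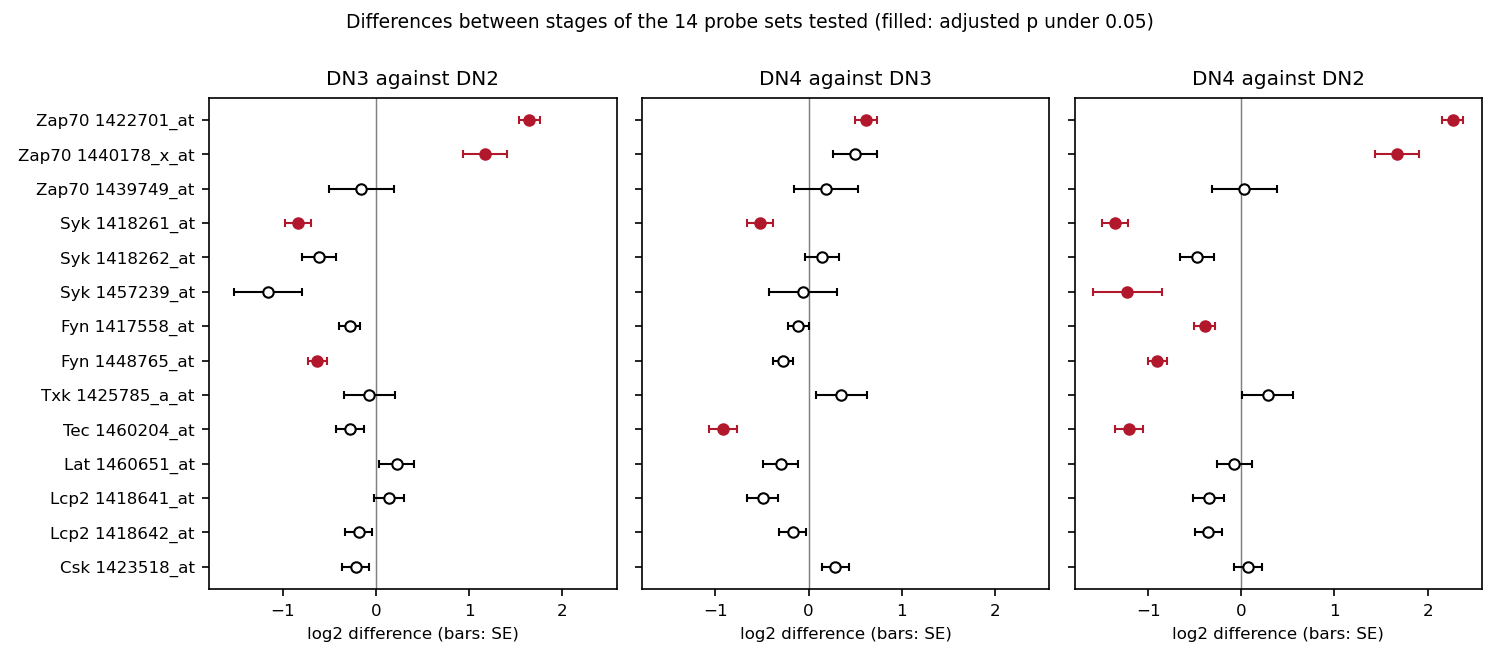
Log2 difference between stages for each of the 14 probe sets tested, with bars for the SE of the limma fit and filled points for an adjusted p under 0.05. The filled points of Zap70 lie to the right of 0 and those of Syk, Fyn and Tec to the left, and Lat, Lcp2, Csk and Txk carry no filled point.

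The genes around these kinases were described from lists by role, each gene at its brightest probe set. Among all 11164 genes tested, read in the same way, 9.10% were called from DN2 to DN3 (3.71% higher and 5.39% lower), 13.3% from DN3 to DN4 (5.51% and 7.75%) and 31.4% from DN2 to DN4 (16.0% and 15.4%). Of the receptor and coreceptor chains, 7 of 8 were tested. From DN2 to DN3, 4 were called higher and 0 lower, among the 4 Cd8b1, which lay below the filter level at both stages. The median, which includes Cd8b1, was 0.87 against 0.02 over all genes tested. Cd3d, a CD3 chain, rose by 2.43 ± 0.196 (adjusted p = 1.34e-05), Ptcra, the pre-T alpha chain, by 2.46 ± 0.365 (adjusted p = 0.00156) and Cd3e by 0.87 (adjusted p = 0.00804). The fourth was Cd8b1 (adjusted p = 0.0174), which averaged 3.16 in DN2 and 4.52 in DN3, below the filter level in both, and was tested through its DN4 level, so nothing is read from that step. From DN3 to DN4, 2 rose and 2 fell, with a median of -0.52. Cd8b1, a CD8 chain, averaged 4.52 in DN3, below the filter level, and 8.28 in DN4 (adjusted p = 2.66e-05). Its fitted rise of 3.76 ± 0.302 hangs on the constant added, and the gene was tested through its high DN4 level. Cd8a rose by 0.97 (adjusted p = 0.0322), whereas Cd3g fell by 0.88 ± 0.109 (adjusted p = 4.97e-04) and Cd3e by 0.71 (adjusted p = 0.0193). The Cd8a call was lost with arrays centred on their median (0.83, adjusted p = 0.0602), on the signals as deposited (0.46, adjusted p = 0.205) and without the 2 arrays of lowest signal, DN2 replicate 2 and DN4 replicate 1 (0.86, adjusted p = 0.0835). The zeta chain gene Cd247, which offers most of the docking sites for Zap70, averaged 9.60, 9.95 and 9.87 and passed the test at neither step. From DN2 to DN4, 4 rose, among them Cd8b1, and 1 fell.

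Among brakes and regulators of the Src-family kinases, 15 of 16 were tested, and their medians were 0.18 and -0.15 at the steps. From DN2 to DN3, 2 rose and 1 fell, where 9.10% of all genes tested were called. Sit1, a membrane adaptor that recruits phosphatases, rose by 1.22 ± 0.181 (adjusted p = 0.00151) and Ubash3a, whose product binds Cbl, by 0.57 (adjusted p = 0.0245), and Ubash3b fell by 1.27 (adjusted p = 0.0291) and ended under the filter level. From DN3 to DN4, 1 rose and 4 fell, where 13.3% of all genes tested were called. Pag1, the membrane anchor of Csk, fell by 0.97 ± 0.143 (adjusted p = 0.00153), the ubiquitin ligase gene Cblb by 1.15 (adjusted p = 0.00813), the adaptor gene Lax1 by 0.99 (adjusted p = 0.0111) and Ptpn22, a phosphatase that partners Csk, by 0.76 (adjusted p = 0.0138). Sla, an adaptor that lowers receptor levels, rose by 1.06 (adjusted p = 0.00712). Without the 2 arrays of lowest signal the count for DN3 against DN2 was 1 higher and 0 lower. On the signals as deposited neither Ubash3a (adjusted p = 0.177) nor Sla (adjusted p = 0.0523) was called at these steps. From DN2 to DN4, 3 rose and 4 fell, where 31.4% of all genes tested were called.

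The partners of LAT and SLP-76 had medians of -0.13, -0.05 and -0.10 in the order used above, with 12 of 13 tested. From DN2 to DN3, 0 rose and 2 fell, where 9.10% of all genes tested were called. Tespa1 fell by 1.19 ± 0.208 (adjusted p = 0.00445) and the adaptor gene Grb2 by 0.37 (adjusted p = 0.0364). From DN3 to DN4, 0 rose and 1 fell, where 13.3% of all genes tested were called, so that count is no result about the list. The 1 was the phospholipase gene Plcg1, which fell by 0.87 ± 0.172 (adjusted p = 0.00807). Over both steps 1 rose (Grap2, 0.41, adjusted p = 0.0463) and 3 fell, or 4 of 12, which is near the share of all genes called and is no result about the list. Grap2 was not called with arrays centred on their median (0.31, adjusted p = 0.166), on the signals as deposited (-0.05, adjusted p = 0.918) or without the 2 arrays of lowest signal (0.44, adjusted p = 0.105). On the signals as deposited the first median was 0.03, and 0 of the 12 were called there. Without the 2 arrays of lowest signal, 1 fell from DN2 to DN3.

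The list of relatives used mainly by B, myeloid and NK cells was the one with most falls at the step from DN2. Of 7 tested of 10, 4 fell and 0 rose from DN2 to DN3, with a median of -1.43. Of all genes tested, 5.39% were called lower. Btk, Tyrobp, Fcer1g and Lat2 averaged below the filter level in DN3 and DN4. They were tested through their DN2 level, which favours a fall, so the count and the median are no result about the list. The Tec-family kinase gene Btk fell by 3.18 ± 0.294 (adjusted p = 4.07e-05), the adaptor gene Tyrobp by 3.63 ± 0.398 (adjusted p = 1.66e-04) and Fcer1g by 1.27 (adjusted p = 0.0484), and all 3 ended under the filter level, where the fitted size hangs on the constant added. Plcg2, which stayed above it, fell by 1.89 ± 0.118 (adjusted p = 2.57e-06). From DN3 to DN4 the 1 call was Btk (adjusted p = 0.0226), which averaged 4.42 and 3.21, below the filter level at both stages, so no size is read from it. Over both steps 5 fell, among them Btk, Tyrobp, Fcer1g and Lat2, where 15.4% of all genes tested were called lower. These 4 were tested through their DN2 level, so this count too is no result about the list. Without the 2 arrays of lowest signal 3 fell at the first step and 0 at the second. The summed signals of the mast, NK and myeloid lists given above moved the same way, and the part of such cells in these falls was not tested.

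**Figure D4:**
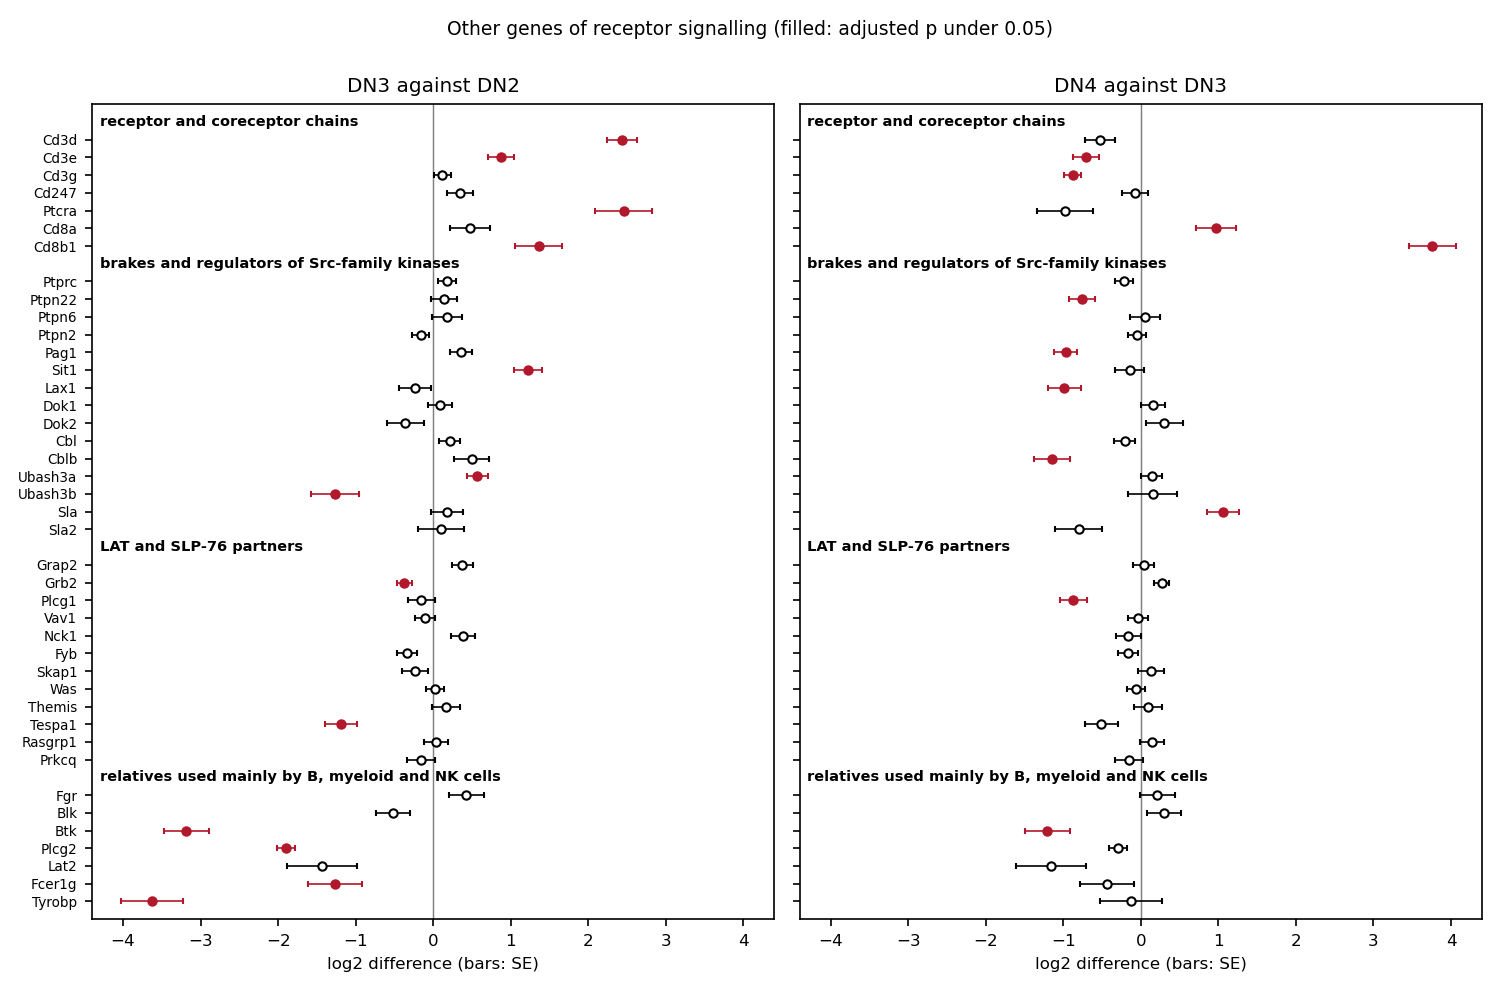
Log2 difference with SE for the genes tested on the 4 lists, DN3 against DN2 on the left and DN4 against DN3 on the right, with filled points for an adjusted p under 0.05. On the left the filled points of the receptor chains lie above 0 and those of the B, myeloid and NK relatives below 0. Cd8b1 was tested through its DN4 level, and Btk, Tyrobp and Fcer1g through their DN2 level.

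The genes with profiles most like Zap70 and Syk were taken by Pearson correlation over the 12 arrays among 11170 genes, as a description with no p. Arrays of 1 stage share their level, so any gene that climbs or descends across the stages correlates highly. For Zap70 they were Sh2d1a (r = 0.984), H2-Q2 (0.98), Nsg2 (0.974), Cds2 (0.974) and Camk4 (0.973). Sh2d1a, which encodes the adaptor SAP, averaged 7.07 in DN2, 9.62 in DN3 and 10.31 in DN4, and Camk4, a calcium-dependent kinase, averaged 5.42, 8.55 and 9.95. For Syk they were Zyx (0.992), Bach2 (0.989), Itgal (0.989), Etv6 (0.987) and Itga4 (0.984). Bach2, a transcription factor gene, averaged 8.75, 6.83 and 5.78, and Itgal, the integrin alpha L chain, averaged 9.99, 9.38 and 8.99.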

How the data were processed

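The authors deposited linear intensity values, 1 per probe set. The submitters' processing notes name GCOS, and which version or scaling they used is not given in the sources used here. RNA was amplified in repeated rounds of cDNA synthesis, per the labels' protocols. Groups and sort numbers came from the sample titles. Of 45101 probe sets, 64 were controls, 34958 had 1 gene symbol in the platform annotation, 932 had several and 9211 had none. RefSeq (GRCm38.p6) held the gene of 34754 of the probe sets with 1 symbol.

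Signals were quantile-normalized, 5.69 was added and log2 was taken. Stage means were estimated for every probe set by itself, from 12 arrays, with limma 3.58.1 (lmFit and eBayes, two-sided) under R 4.3.3. Python 3.11.15, pandas 2.3.3 and matplotlib 3.10.9 did the rest. The fit was tested on simulated data. The members and lists were chosen with earlier results of these data known. Genes were named by a rule: all members, up to 4 called genes of each pathway list and comparison with the smallest adjusted p, and the stage markers. The rule also took the brightest tested genes of each marker list and the 5 genes whose profiles correlate best with Zap70 and with Syk. Some genes that the rule allows are left out of the text, and some marker genes outside it, such as Cd68, are named.

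The labels state that same-numbered samples came from one pool of cells. Arrays of one sort deviated together from their stage means (r = 0.25 to 0.391), and those of different sorts across stages at most at r = 0.143, so the numbers pair the arrays. A blocked fit by sort was tried. No arrays were identical. Other alternatives were the scaling, the constant, the filter, 1 probe set or the mean of probe sets per gene, the arrays fitted, eBayes options, array weights, the Gapdh ratio with the block, pairs of sorts, and each array left out. The number of arrays limits the precision.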

Additional observations from a re-analysis of the deposited data

Results flagged for a closer look

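Within 48 groups of 4 arrays (the 15 probe sets and Zap70 minus Syk, in 3 stages), 1 array stood far from the other 3 in 4 groups, by a gap that passes Dixon's critical value. Chance marks about 1 in 20 such groups. The Zap70 probe set 1440178_x_at was 7.763 in DN4 of sort 1, where the others were 8.792 to 8.962. The Syk probe set 1418261_at was 8.087 in DN3 of sort 2, where the others were 7.666 to 7.708. Txk was 4.436 in DN2 of sort 3, below the filter level, where the others were 5.59 to 5.81. Csk was 8.735 in DN3 of sort 1, where the others were 9.118 to 9.194.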

How the results depend on the processing

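No called difference of the 14 member probe sets changed direction under any alternative run. Some of their differences that missed the threshold changed sign, as Zap70 1440178_x_at did for DN4 against DN3 on the signals as deposited (-0.02). Of the list genes, Grap2 was called for DN4 against DN2 (0.41) and was -0.05 on the signals as deposited. With the sort as a block, 3575 and 5588 of all probe sets were called at the steps from DN2 to DN3 and from DN3 to DN4, against 1724 and 2713 without it, and 6, 4 and 8 of the 14 members were called in the 3 comparisons, against 4, 3 and 7. The exact sign-flip test over the 4 pairs cannot give a p under 0.125, and gave that for Zap70 minus Syk (2.48, 1.15 and 3.63).

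For DN3 against DN2, all probe sets called were 770 as deposited, 1006 with no filter, 1115 with the mean of probe sets per gene, 381 with the Gapdh ratio and block, 214 in sorts 1 and 2 alone and 325 in sorts 3 and 4 alone. Members called were 2 as deposited, 2 with the brightest probe set per gene, and 1 with the Gapdh ratio and block and in each pair of sorts. For DN4 against DN3, all called were 5183 as deposited (54 higher and 5129 lower, against 1066 and 1647, and 524 and 2119 with arrays centred on their median), 1385 with no filter, 1591 with the mean of probe sets, 4095 with the Gapdh ratio and block, and 132 and 193 in the pairs of sorts. Members called were 6 as deposited, 5 with the filter at the 75th percentile, 1 with the mean of probe sets, 5 with the Gapdh ratio and block, and 0 in either pair of sorts (limma). For DN4 against DN2, all called were 3868 and 3316 with the brightest or mean probe set, and 2414 and 2952 in the pairs of sorts, and as deposited 419 were higher and 4874 lower, against 3397 and 3152. Members called were 4 with the brightest probe set and 4 in sorts 1 and 2. A mean or brightest probe set per gene leaves fewer features, and a pair of sorts fewer arrays. The cause of the other shifts was not tested.

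Leaving out 1 array gave 1193 to 1716, 1483 to 2909 and 5155 to 6459 calls, with 4 to 5, 2 to 3 and 5 to 7 members, and Zap70 minus Syk of 2.40 to 2.60, 1.03 to 1.22 and 3.53 to 3.69 (exact permutation p = 0.0571, the smallest for 3 against 4). Without the 2 arrays of lowest signal, chosen after seeing the data, 1383, 2017 and 4987 of all probe sets and 5, 4 and 5 members were called.

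In pairs of sorts Zap70 minus Syk was 2.47 and 2.50, 1.18 and 1.11, and 3.64 and 3.61 (exact permutation p = 0.333, the smallest possible). With Zap70 1439749_at and the Syk probe sets 1418261_at, 1418262_at and 1457239_at it was 0.68, 0.46 and 1.005 for DN3 against DN2, 0.71, 0.049 and 0.25 for DN4 against DN3, and 1.39, 0.51 and 1.26 for DN4 against DN2. For DN4 against DN3 it was also 0.68 with 1422701_at and 1457239_at, and 1.03, 0.36 and 0.56 with 1440178_x_at. All of these missed the threshold (exact permutation p from 0.0571 to 0.886). For single probe sets, with all 12 arrays in the model 418 values kept their side of the threshold, 22 gained a call and 13 lost one. With fewer arrays (1 or 2 left out, a pair of sorts, or the 8 compared) 627 kept it, 9 gained a call and 36 lost one.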
